A study of Mus musculus with 4 samples.

Results

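Wnt ligands are secreted glycoproteins that cells of the bone surface use to signal to themselves and to their neighbors. The ligands examined here were *Wnt2*, *Wnt2b*, *Wnt4*, *Wnt5a*, *Wnt5b*, *Wnt7b*, *Wnt9a*, *Wnt10b*, *Wnt11* and *Wnt16*, taken from the expression table by gene symbol. They are 10 of the 19 Wnt genes in the table, which lists 45802 gene symbols in all. Each of the 10 had a value in every library.

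Total RNA was sequenced from mouse periosteal cells, the cells of the outer sheath of bone, taken from the femurs and tibias of male Pdgfrα-mTmG mice 9–10 weeks old. All animals received tamoxifen (150 mg/kg per day for 5 d) and were dissected 14 d later, so that the comparison group had the same genotype and treatment. In this model the *Pdgfra* promoter drives an inducible CreER, and recombined cells and their descendants switch from membrane tdTomato to membrane GFP. PDGFRα reporter+ cells were CD31-CD45-Ter119-mGFP+, and PDGFRα reporter- cells were CD31-CD45-Ter119-mTdtomato+, with 2 libraries of each. Before the sort, cells grew for 1 passage in medium containing 10 ng/mL bFGF, and each population pooled 3–6 mice per the labels, whereas the methods of the study give another number of animals. The reporter marks cells with past promoter activity and their descendants. The *Pdgfra* transcript had log2 values of 7.78 and 7.62 in the PDGFRα reporter+ libraries and of 7.87 and 7.44 in the PDGFRα reporter- libraries. The cause of this similarity was not tested.

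The values were quantile-normalized log2 expression values, and a blank stood for no signal. Their linear unit and the sequencing depth are not given in the sources used here, so that no counting error is attached to a value. It is also not given whether they were divided by transcript length, and the level of a gene is therefore compared between libraries and not with that of another gene. Where values are summed over a list of markers, the sum is weighted toward the members with high values. The libraries of each population carry the numbers 2 and 3 in the table. What the number stands for is not given, but libraries differed strongly by it, and each difference between the populations is therefore also given within each number. With population and number both as terms in limma, 3065 of 14415 genes listed in every library differed between the numbers at an adjusted p under 0.05, and 29 differed between the populations. Without the variance trend of limma both counts were 0, and with the population as the only term the second was 0 as well. The periosteal stromal markers *Pdgfra*, *Pdgfrb*, *Prrx1*, *Col1a1*, *Col1a2*, *Postn*, *Thy1*, *Ly6a*, *Lum* and *Dcn* were all at a mean log2 of 0 or more. Of these 10, 6 were lower in PDGFRα reporter+ cells within both numbers, as were 24.8% of all genes. *Lum* (1.83, SE 0.33) and *Dcn* (1.39, SE 0.39) were higher in both PDGFRα reporter+ libraries than in either of the others. This pattern was seen in 7.59% of all genes. *Ly6a* (−0.21, SE 0.23) was lower in both than in either of the others, as were 8.1%.

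Wnt proteins are acylated by Porcupine (*Porcn*) in the endoplasmic reticulum and carried to the surface by Wntless (*Wls*). Outside the cell they bind Frizzled receptors together with LRP5 or LRP6, which stabilizes β-catenin, or with ROR and RYK receptors, which act without β-catenin. In bone, β-catenin signaling favors osteoblasts over chondrocytes and adipocytes, and it is restrained by secreted antagonists such as the SFRP and DKK proteins. The lipid is attached to a serine in a stretch that the whole family shares. The codons around this serine are shown because they are what the ligands have in common by sequence, whatever their level. They were read from the GENCODE M21 transcripts on GRCm38, 5′ to 3′ on the coding strand, with the serine codon in capitals.

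Wnt2 (chr6:18008789-18008818, minus strand): aagtgtcatggtgtgAGTggctcctgtact
Wnt2b (chr3:104951217-104951246, minus strand): aagtgtcacggtgtgAGTggctcctgtact
Wnt4 (chr4:137296342-137296371, plus strand): aagtgtcacggggtgTCGggctcctgcgag
Wnt5a (chr14:28522512-28522541, plus strand): aagtgtcatggagtgTCTggctcctgtagc
Wnt5b (chr6:119433797-119433826, minus strand): aaatgtcacggagtcTCCgggtcctgcagc
Wnt7b (chr15:85537809-85537838, minus strand): aagtgtcacggtgtgTCAggctcctgtacc
Wnt9a (chr11:59330923-59330952, plus strand): aaatgccatggtgtgTCTggctcctgcacc
Wnt10b (chr15:98772875-98772904, minus strand): aaatgccatggaacgTCAggcagctgccaa
Wnt11 (chr7:98850257-98850286, plus strand): aaatgccatggggtgTCTggctcctgctcc
Wnt16 (chr6:22297797-22297826, plus strand): cgctgccacggagttTCCggctcctgtgct

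Each stretch lies within a single coding exon. Across the 10 ligands, 11 of the 30 bases were the same in every gene. The serine codon was AGT in the closely related pair *Wnt2* and *Wnt2b* and began with TC in the other 8. *Wnt10b* shared the fewest bases with *Wnt16* (16 of 30), and the other ligands shared 19 to 21.

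The first question was whether PDGFRα reporter+ and PDGFRα reporter- periosteal cells differ in the ligands they transcribe. The difference is given as the mean log2 value of the PDGFRα reporter+ libraries minus that of the PDGFRα reporter- libraries, and limma supplied its standard error (SE). Two-sided p-values were adjusted over all 14415 genes by the Benjamini-Hochberg method. No ligand passed an adjusted p of 0.05, and the smallest adjusted p over all genes was 1. Of the ligands, 1 had an unadjusted p under 0.05 (*Wnt16*), as did 131 genes (0.909%) of all those tested. With 2 libraries against 2, the smallest p of an exact two-sided permutation test for a single gene is 0.333. *Wnt16* and *Wnt2b* were higher in both PDGFRα reporter+ libraries than in either PDGFRα reporter- library, a pattern seen in 7.59% of all genes. *Wnt7b* and *Wnt9a* were lower in both, as were 8.1% of all genes. For the other 6 ligands the populations overlapped.

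**Figure D1:**
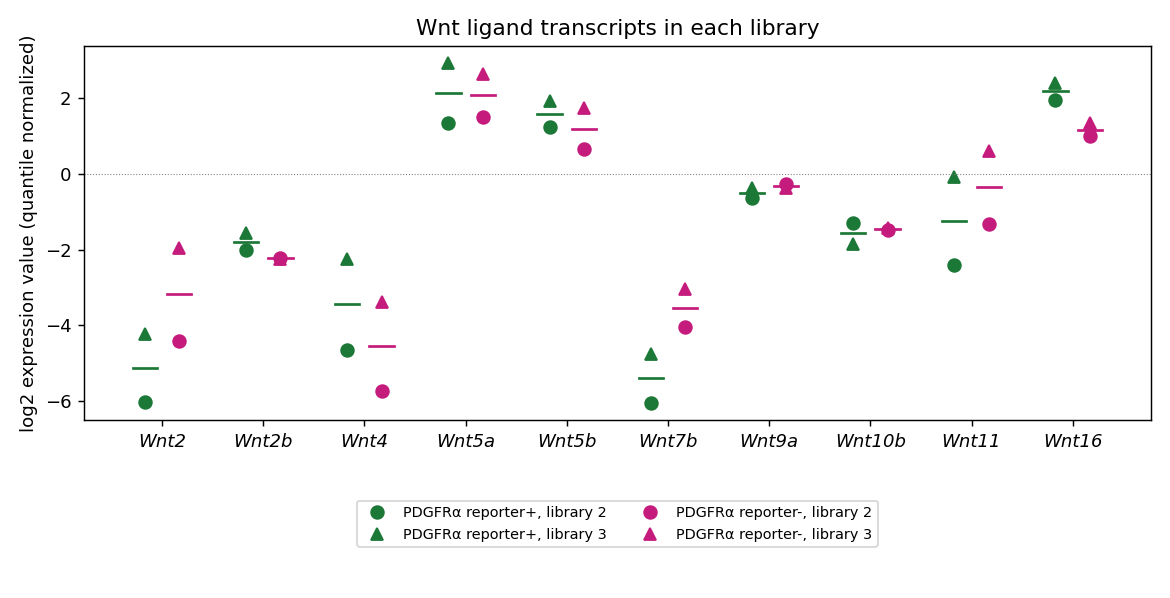
Log2 expression value (y axis) of each Wnt ligand (x axis) in every library. Circles are libraries numbered 2, triangles are libraries numbered 3, and short bars are the mean of a population (n = 2). Both PDGFRα reporter+ libraries lie above both PDGFRα reporter- libraries for *Wnt16* and *Wnt2b*, and below them for *Wnt7b* and *Wnt9a*.

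*Wnt16* (chromosome 6, 22288227 to 22298522) encodes a ligand that osteoblast lineage cells make and that is known for its part in cortical bone thickness. Its log2 values were 1.95 and 2.42 in PDGFRα reporter+ libraries 2 and 3 and 1.01 and 1.34 in PDGFRα reporter- libraries 2 and 3. The populations were separated by a gap of 0.60 on the log2 scale, which was wider than the distance between the libraries within either population. The mean difference was 1.01 (SE 0.27, 95% interval 0.29 to 1.73), or 2.01-fold, with an unadjusted p of 0.0162 and an adjusted p of 1 by limma. Within the numbers it was nearly the same, at 0.94 for number 2 and 1.08 for number 3. In this fit, which has no term for the number, *Wnt16* was the only ligand of the 10 whose 95% interval did not include 0.

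*Wnt4* (chromosome 4, 137277489 to 137299726) can signal with or without β-catenin and has been tied to bone formation. Its log2 values were −4.66 and −2.24 in PDGFRα reporter+ libraries 2 and 3 and −5.74 and −3.38 in PDGFRα reporter- libraries 2 and 3. The difference between the populations was almost equal within the numbers, at 1.08 and 1.15. The libraries of 1 population, however, lay further apart than this, and the mean difference of 1.11 had an SE of 1.26. With the number as a block in limma, the SE was 0.56 and the adjusted p was 0.905, or 0.463 without the trend. With a pseudocount of 1 added on the linear scale, the mean difference was 0.09.

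*Wnt2b* (chromosome 3, 104945272 to 104961921), a ligand of the β-catenin branch, had log2 values of −2.02 and −1.55 in the PDGFRα reporter+ libraries and of −2.23 and −2.24 in the PDGFRα reporter- libraries. The mean difference of 0.45 (SE 0.45) was made up of 0.21 within number 2 and 0.69 within number 3, and it was 0.09 with a pseudocount of 1. *Wnt5b* (chromosome 6, 119432531 to 119544347), a β-catenin-independent ligand known from the growth plate, had log2 values of 1.24 and 1.92 in the PDGFRα reporter+ libraries and of 0.66 and 1.74 in the PDGFRα reporter- libraries. Its difference was 0.38 (SE 0.47), with 0.59 and 0.18 within the numbers. The gene *Fbxl14* lies within *Wnt5b* on the opposite strand, and its own difference was −0.03 (SE 0.19). Whether reads were counted by strand is not given.

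*Wnt2* and *Wnt7b* showed the largest differences toward the PDGFRα reporter- cells among the 10 ligands, both at low values. *Wnt7b* (chromosome 15, 85535437 to 85582473), a ligand that promotes osteoblast differentiation, had log2 values of −6.06 and −4.75 in PDGFRα reporter+ libraries 2 and 3 and of −4.04 and −3.03 in PDGFRα reporter- libraries 2 and 3. The gap between the populations was 0.71, and the difference was −2.01 within number 2 and −1.71 within number 3. The mean difference was −1.86 (SE 0.80, 95% interval −3.997 to 0.27), so that the level was 3.64-fold higher in PDGFRα reporter- cells.

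*Wnt2* (chromosome 6, 17988940 to 18030585), a ligand of the β-catenin branch best known from lung development, had log2 values of −6.03 and −4.24 in PDGFRα reporter+ libraries 2 and 3. In PDGFRα reporter- libraries 2 and 3 they were −4.43 and −1.95. PDGFRα reporter+ library 3 lay above PDGFRα reporter- library 2, and the populations therefore overlapped. Within the numbers the difference was −1.60 and −2.30, with a mean of −1.95 (SE 1.16, 95% interval −5.05 to 1.15). With a pseudocount of 1 added on the linear scale, it was −0.15 for *Wnt2* and −0.09 for *Wnt7b*.

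*Wnt11* (chromosome 7, 98835112 to 98855195) acts mainly without β-catenin, in directed cell movement. Its log2 values were −2.41 and −0.08 in PDGFRα reporter+ libraries 2 and 3 and −1.31 and 0.61 in PDGFRα reporter- libraries 2 and 3. It was lower in the PDGFRα reporter+ library of either number, by −1.10 and −0.70, but the populations overlapped and the mean difference of −0.90 had an SE of 1.06. With a pseudocount of 1 it was −0.31. *Wnt9a* (chromosome 11, 59306928 to 59333552), known from joint formation, had log2 values of −0.64 and −0.38 in the PDGFRα reporter+ libraries and of −0.25 and −0.37 in the PDGFRα reporter- libraries. Its populations were separated by only 0.01, and the mean difference was −0.20 (SE 0.32), or −0.09 with a pseudocount of 1.

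For *Wnt5a* and *Wnt10b* the difference between the populations had opposite signs within the numbers, as it did for 53.2% of all genes. *Wnt5a* (chromosome 14, 28504750 to 28527448), the main ligand of the ROR receptors, had log2 values of 1.35 and 2.94 in PDGFRα reporter+ libraries 2 and 3 and of 1.501 and 2.66 in PDGFRα reporter- libraries 2 and 3. Its mean difference was 0.07 (SE 0.68, 95% interval −1.74 to 1.87). *Wnt10b* (chromosome 15, 98770712 to 98778150), a β-catenin ligand that favors osteoblasts over adipocytes, had log2 values of −1.29 and −1.84 in the PDGFRα reporter+ libraries and of −1.47 and −1.43 in the PDGFRα reporter- libraries. Its mean difference was −0.11 (SE 0.43, 95% interval −1.25 to 1.02), or −0.02 with a pseudocount of 1.

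**Figure D2:**
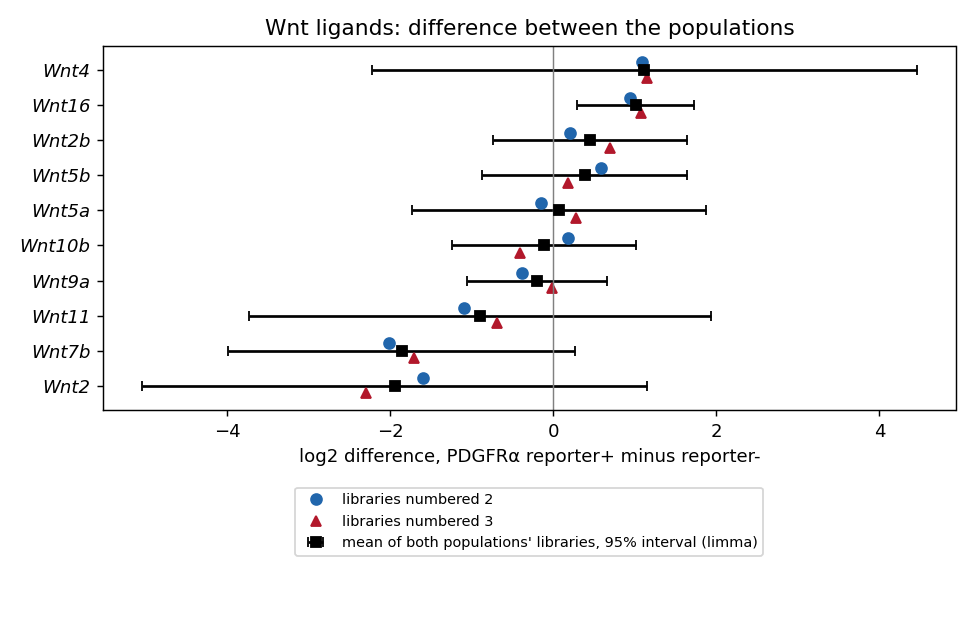
Log2 difference of PDGFRα reporter+ minus PDGFRα reporter- cells (x axis) for each Wnt ligand (y axis). Squares with bars are the mean difference with its 95% interval from limma without a term for the number, circles the difference within the libraries numbered 2 and triangles within those numbered 3. The interval of *Wnt16* runs from 0.29 to 1.73, and those of the other 9 ligands include 0.

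Counted by sign within the numbers, 4 ligands were higher in PDGFRα reporter+ cells in both (*Wnt2b*, *Wnt4*, *Wnt5b* and *Wnt16*), compared with 22.1% of all genes. Another 4 were lower in both (*Wnt2*, *Wnt7b*, *Wnt9a* and *Wnt11*), compared with 24.8% of all genes. By size, *Wnt4* and *Wnt16* lay above a limit of 2 SD of the differences over all genes (0.83), as did 3.36% of genes, and *Wnt2*, *Wnt7b* and *Wnt11* lay below it in the other direction, as did 2.8%. These counts hold for values without a pseudocount. With a pseudocount of 1, *Wnt4* stood at 0.09, *Wnt2* at −0.15, *Wnt7b* at −0.09 and *Wnt11* at −0.31, beside 0.77 for *Wnt16*. The median difference was −0.02 over the 10 ligands, with 5 above and 5 below 0, and −0.004 over all genes tested. Differences were wider among genes with low values: their SD was 0.69 over genes with a mean log2 value below 0 and 0.22 over the remaining genes. The mean of *Wnt5a*, *Wnt5b* and *Wnt16* was above 0, and that of the other 7 ligands was below it.

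Values of markers of other cell types moved with the populations too, although none passed an adjusted p of 0.05 in the fit with the population as the only term. With the number as a second term of limma, 3 did, compared with 0.201% of all genes. These were *C1qb* and *Tyrobp* of 12 macrophage markers fitted (adjusted p = 0.0437 for both) and *Actg2* of 5 smooth muscle markers (adjusted p = 0.0473). None of the 7 endothelial, 4 osteoblast, 3 chondrocyte, 2 skeletal muscle and 3 Schwann cell markers fitted passed. Of the 10 stromal markers, *Lum* also passed (adjusted p = 0.0121). Without the variance trend, that fit called 0 genes. Of 14 macrophage markers, 12 had a value in all libraries. Of these, 11 were higher within both numbers and 8 lay above without overlap, compared with 22.1% and 7.59% of all genes. The log2 of their summed level was 7.94 to 8.17 in PDGFRα reporter+ libraries and 6.61 to 7.52 in PDGFRα reporter- libraries. Most of this sum was *Lyz2*, with log2 values of 7.65 and 7.88 in PDGFRα reporter+ and of 6.27 and 7.25 in PDGFRα reporter- libraries 2 and 3. *Ptprc*, the gene of the CD45 antigen used for the sort, was listed in all 4 libraries at log2 values from −2.30 to −0.39. *Cd163* was blank in 3 libraries, and *Fcgr1* in PDGFRα reporter- library 2. Of 8 endothelial markers, 7 had a value in all libraries. Of these, 5 were lower within both numbers and 4 lay below without overlap, compared with 24.8% and 8.1% of all genes, and the summed level was 1.40 to 1.70 in PDGFRα reporter+ and 1.66 to 2.64 in PDGFRα reporter- libraries. *Egfl7* had log2 values of 0.997 to 1.29 in the 4 libraries and a difference of −0.04 (SE 0.24). *Pecam1*, the gene of the CD31 antigen used for the sort, was listed in all 4 libraries. Its log2 values were −4.68 and −4.79 in PDGFRα reporter+ and −1.99 and −1.11 in PDGFRα reporter- libraries 2 and 3. The difference was −3.19 (SE 0.57), beside −4.26 (SE 0.87) for *Cdh5* and −3.44 (SE 0.86) for *Emcn*. Every value of these genes was below a log2 of 0, where differences were wider over all genes. *Vwf* had a positive difference (0.09, SE 0.69), with opposite signs within the numbers. *Cldn5* was blank in PDGFRα reporter+ library 2. All 5 smooth muscle markers were lower within both numbers and 2 lay below without overlap, compared with 24.8% and 8.1% of all genes. Their summed level was 2.67 to 4.68 in PDGFRα reporter+ and 4.59 to 5.31 in PDGFRα reporter- libraries. Only 2 of 5 skeletal muscle markers had a value in all libraries, *Acta1* (−2.01, SE 0.80) and *Des* (a difference of nearly the same size, SE 0.60), and both lay below without overlap, compared with 8.1% of all genes. Of 5 osteoblast markers, 4 had a value in all libraries, 3 with a positive and 1 with a negative difference. *Ibsp* (1.35, SE 0.77) and *Alpl* (0.80, SE 0.44) lay above without overlap, compared with 7.59% of all genes, whereas *Sp7* (0.09, SE 0.47) and *Dmp1* (−0.37, SE 1.70) overlapped and *Bglap* was blank in PDGFRα reporter+ library 2. The part of these cells in the differences of *Wnt16*, *Wnt2*, *Wnt7b* and the other ligands was not tested. In bulk libraries, fewer cells of a type and less RNA per cell cannot be told apart.

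The libraries numbered 3 and 2 were then compared, with the population as a block in limma. This comparison was chosen after the values had been seen. In libraries numbered 3, 5 ligands were higher at an adjusted p under 0.05, compared with 11.5% of all genes in this direction, and 0 were lower, compared with 9.79%. These 5 were *Wnt2*, *Wnt4*, *Wnt5a*, *Wnt5b* and *Wnt11*. *Wnt4* was higher by 2.42 among PDGFRα reporter+ and by 2.36 among PDGFRα reporter- cells (mean 2.39, SE 0.56, adjusted p = 0.0170). *Wnt11* was higher by 2.33 and 1.93 (adjusted p = 0.00133), and *Wnt2* by 1.78 and 2.48 (adjusted p = 0.0331). *Wnt5a* was higher by 1.59 and 1.16 (adjusted p = 0.000662), and *Wnt5b* by 0.68 and 1.09 (adjusted p = 0.0103).

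Markers of other cell types moved with the number as well. Of the markers listed in every library, 6 of 12 for macrophages, 2 of 5 for smooth muscle, 2 of 4 for osteoblasts, 1 of 7 for endothelial cells and 1 of 10 for stromal cells were higher in number 3 at this threshold (11.5% of all genes). All 3 for chondrocytes (*Acan*, *Col2a1* and *Sox9*), 3 of 10 for stromal cells and 1 of 3 for Schwann cells were lower (9.79% of all genes). *Acan* had log2 values of −1.09 and −4.91 in PDGFRα reporter+ libraries 2 and 3 and of −1.62 and −4.89 in PDGFRα reporter- libraries 2 and 3. The log2 of the summed level of the chondrocyte markers was 3.54 and 3.92 in the libraries numbered 2 and 1.53 and 2.37 in those numbered 3. The part of these cells in the ligands' differences by number was not tested.

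The calls by number depend on the variance trend, by which limma shares information among genes of similar level. Without it, 0 ligands and 0 genes passed an adjusted p of 0.05, and the adjusted p-values of the 5 ligands were 0.0641 for *Wnt2*, 0.0536 for *Wnt4*, 0.0750 for *Wnt5a*, 0.113 for *Wnt5b* and 0.0600 for *Wnt11*. At an unadjusted p under 0.05, that model of limma called 6 ligands and 27.1% of all genes. *Wnt7b* (1.31 and 1.01) and *Wnt16* (0.47 and 0.34) were also higher in number 3 in both populations, with adjusted p-values of 0.221 and 0.111 with the trend. That made 7 ligands with higher values in number 3 in both populations, compared with 41.1% of all genes. No ligand was lower in number 3 in both populations, compared with 32.7% of all genes. For *Wnt2b*, *Wnt9a* and *Wnt10b* the sign differed between the populations. For *Wnt2*, *Wnt4*, *Wnt5a*, *Wnt5b*, *Wnt10b* and *Wnt11* the libraries of 1 population thus lay further apart, on average over the populations, than the populations did. For *Wnt2b*, *Wnt7b*, *Wnt9a* and *Wnt16* the populations lay further apart. The share of all genes with either pattern was not counted, so that neither can be called particular to the ligands.

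**Figure D3:**
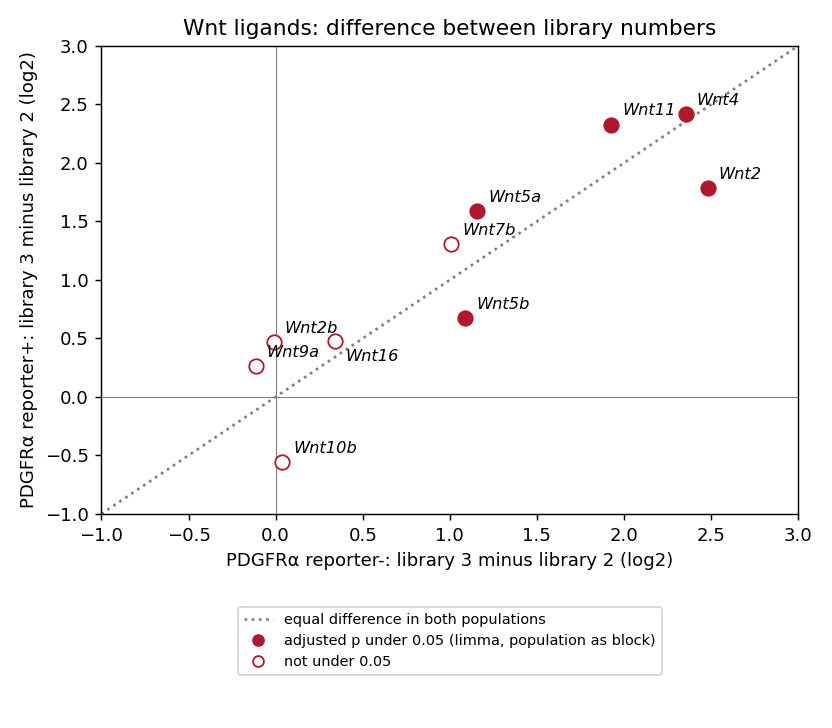
Log2 difference of library 3 minus library 2 in PDGFRα reporter- cells (x axis) and in PDGFRα reporter+ cells (y axis) for each Wnt ligand. Filled circles are the 5 ligands with an adjusted p under 0.05 in the model with a variance trend, and the dotted line marks equal differences. *Wnt4*, *Wnt11* and *Wnt2* lie furthest to the upper right, and *Wnt10b* lies below 0 on the y axis.

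Among the other 9 Wnt genes, *Wnt1*, *Wnt3*, *Wnt3a*, *Wnt7a*, *Wnt8b* and *Wnt9b* were blank in every library. *Wnt1* is the genomic neighbor of *Wnt10b*, at a distance of 11707 bases, and *Wnt3a* of *Wnt9a*, at 16176 bases, so that in both pairs 1 gene had a value in all libraries and its neighbor in none. In the closer pair of *Wnt6* and *Wnt10a* (6194 bases) both genes had a value in all libraries, and in that of *Wnt3* and *Wnt9b* (24329 bases) both were blank. *Wnt6* had log2 values of −5.72 and −4.06 in PDGFRα reporter+ libraries 2 and 3 and of −5.01 and −5.02 in PDGFRα reporter- libraries 2 and 3 (difference 0.13, SE 0.83). *Wnt10a* had −2.96 and −4.08 in the PDGFRα reporter+ libraries and −1.47 and −4.36 in the PDGFRα reporter- libraries (difference −0.61, SE 1.15). Unlike most of the 10 ligands, *Wnt10a* was lower in number 3 in both populations. *Wnt8a* was listed only in both libraries numbered 2, with a log2 value of −6.12 for PDGFRα reporter+ and of −6.02 for PDGFRα reporter- cells.

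The genes that make, receive and limit Wnt signals were read in the fit with the population as the only term, and none passed an adjusted p of 0.05. With the number as a block in limma, 1 did, *Ccnd1* (adjusted p = 0.0437), as did 0.201% of all genes. With the block and no trend, 0 did. *Porcn*, which acylates every ligand, had log2 values of 1.61 and 1.93 in the PDGFRα reporter+ libraries and of 1.03 and 1.68 in the PDGFRα reporter- libraries (difference 0.42, SE 0.31). *Wls*, which carries the ligands to the surface, had values from 5.58 to 5.85 in the 4 libraries (difference 0.01, SE 0.17). *Notum*, an enzyme that removes the lipid from secreted ligands, had values of 1.00 and 0.79 in the PDGFRα reporter+ libraries and of 0.65 and 0.76 in the PDGFRα reporter- libraries (difference 0.19, SE 0.25), and lay above without overlap.

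Of the 16 receptor genes, all had a value in every library, 1 lay above and 2 below without overlap (7.59% and 8.1% of all genes), and the median difference was −0.06. *Fzd8* had values of 2.95 and 3.02 in PDGFRα reporter+ and of 2.62 and 2.69 in PDGFRα reporter- cells (difference 0.33, SE 0.15), which did not overlap. The coreceptor gene *Lrp5* had a difference of −0.19 (SE 0.16). *Fzd10*, at low values and named after its values had been seen, had the lowest difference of the receptors (−2.02, SE 0.94).

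In the R-spondin system, whose secreted members strengthen Wnt signals, 8 of 9 genes had a value in all libraries, and 2 (*Rspo1* and *Rspo3*) lay above without overlap, compared with 7.59% of all genes. *Rspo3* had values of 1.86 and 1.94 in PDGFRα reporter+ and of 1.22 and 1.52 in PDGFRα reporter- cells (difference 0.53, SE 0.21). Of 12 secreted antagonists, 7 had a value in all libraries, 3 with a positive and 4 with a negative difference (median −0.005), and 2 (*Sfrp4* and *Wif1*) lay above without overlap, against the same 7.59% of all genes. *Sfrp4*, a Frizzled-related decoy known for its part in cortical bone, had values of 6.78 and 6.91 in PDGFRα reporter+ and of 5.93 and 6.57 in PDGFRα reporter- cells (difference 0.59, SE 0.27). *Dkk2*, named after its values had been seen, had the difference furthest from 0 in this list (−1.28, SE 1.44), with −1.59 and −0.97 within the numbers.

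Inside the cell, 16 genes from Dishevelled to the TCF and LEF factors all had a value in every library. Of these 14 had a negative difference, with a median of −0.10 beside −0.004 over all genes tested. The share of all genes with a negative difference was not counted. Apart from *Gsk3a*, each of the 16 had a difference smaller than its SE. Lower within both numbers were 4 of the 16, compared with 24.8% of all genes. *Gsk3a*, a kinase that marks β-catenin for destruction, was the 1 gene of the 16 that lay below without overlap (difference −0.18, SE 0.15), compared with 8.1% of all genes. Of 14 feedback and target genes, 12 had a value in every library, 6 with a positive and 6 with a negative difference. *Axin2*, the usual readout of β-catenin signaling, had values of −2.26 and −0.995 in PDGFRα reporter+ libraries 2 and 3 and of −1.94 and −0.94 in PDGFRα reporter- libraries 2 and 3 (difference −0.19, SE 0.66). *Ccnd1*, a cell cycle gene with many other inputs, had values of 4.95 and 4.72 in PDGFRα reporter+ and of 6.03 and 5.43 in PDGFRα reporter- cells (difference −0.90, SE 0.25), and was the 1 gene of the 12 that lay below without overlap (8.1% of all genes), while *Notum*, which is also a target gene, was the 1 above (7.59%). *Axin2* was higher in number 3 in both populations, as were 7 of the ligands and 41.1% of all genes, and *Ccnd1* was lower in both, as were 32.7%.

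**Figure D4:**
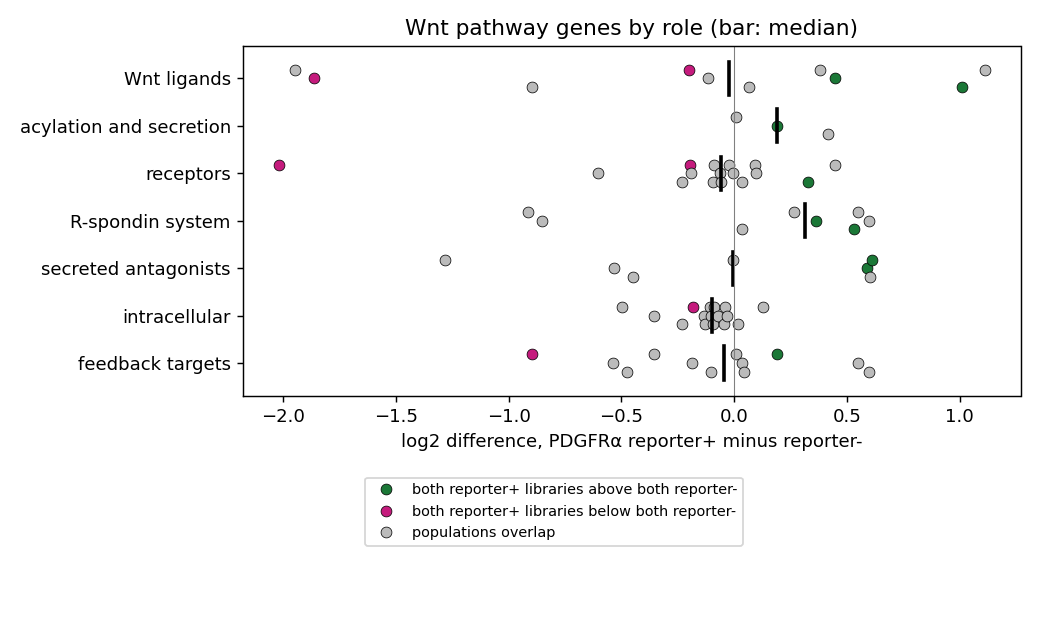
Log2 difference of PDGFRα reporter+ minus PDGFRα reporter- cells (x axis) for the genes of each role in the Wnt pathway (y axis), 1 point per gene with a value in all libraries. Bars mark the median of a list, and color marks whether the libraries of the populations overlap. The ligands spread from −1.95 to 1.11, and most receptors and intracellular genes lie close to 0.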

How the data were processed

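Per the labels, stranded paired-end total RNA libraries were made from the sorted cells. The submitters' processing notes name bcl2fastq 2.17.1.14, Partek 7.0 and the build GRCm38.p6. The authors deposited 1 log2 value per gene symbol and library after quantile normalization. The aligner, the counting, the annotation, the filters and the linear unit are not given in the sources used here. The quartiles and extremes were checked to be equal in the 4 libraries to within rounding, so that a shift shared by most genes cannot be seen. Table headings give the population and a number that the sample labels do not use, so libraries were assigned to a population only. Where the labels do not say that libraries came from separate cultures, p-values measure only the spread between these libraries.

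Genes with a value in all libraries (14415 of 16742 with any value) were fitted with limma 3.58.1 in R 4.3.3, with the population as the only term and a variance trend. The fit was tested on simulated data that had no difference between the numbers. There it recovered 166 of 200 genes changed by a log2 of 2. The real libraries did differ by number, so that this does not give its recovery in them. Alternatives were the number as a block with or without a trend, no trend, a minimum mean of 0, blanks set to the lowest value, pseudocounts of 1 and 0.1, centering, and leaving out each library. Positions, overlaps and coding sequences came from GENCODE M21, in which all 19 Wnt genes were found by symbol, and tables were made in Python 3.11.15. All 10 ligands are named. From the pathway lists the text names *Porcn*, *Wls*, *Axin2* and up to 3 genes per list with a mean of at least 0 and no overlap; *Fzd10*, *Rspo1*, *Wif1*, *Dkk2* and the markers were named after their values had been seen. The ligands, the lists and the tests were chosen with earlier results of these data known. Lists were described by counts and medians and not tested as sets.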

Additional observations from a re-analysis of the deposited data

Results flagged for a closer look

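*Wnt5a* and *Wnt10b* had differences of opposite sign in the libraries numbered 2 and 3. PDGFRα reporter+ minus PDGFRα reporter- was −0.15 for number 2 and 0.28 for number 3 in *Wnt5a*, and 0.18 and −0.41 in *Wnt10b*. With 1 library of each population per number, this was not tested. Opposite signs were also seen in 53.2% of all genes.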

How the results depend on the processing

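No ligand passed an adjusted p of 0.05 between the populations in limma under any of the 12 alternatives. With the number as a replicate block, 29 genes did and 0 ligands, beside 4 ligands (*Wnt2*, *Wnt7b*, *Wnt11* and *Wnt16*) and 6.33% of all genes at an unadjusted p under 0.05. The adjusted p of *Wnt16* was then 0.0612, and 0.463 with the block and no trend, a setting chosen after seeing the data that called 0 genes. At an unadjusted p under 0.05, the latter setting called 5 ligands (those 4 and *Wnt4*) and 6.53% of all genes. The block called 1 gene of the pathway lists, *Ccnd1* (adjusted p = 0.0437). Whether the number pairs the libraries is not given. Across genes, the differences of library 3 from library 2 had a correlation of 0.681 between the populations. Without a trend, the comparison of number 3 with number 2 called 0 ligands. All 10 ligands kept their direction outside the leave-one-out settings wherever they entered the fit, and 5 kept it in these too (*Wnt2*, *Wnt2b*, *Wnt7b*, *Wnt9a* and *Wnt16*). The block, the trend, the minimum mean and the filled blanks leave the mean difference of a ligand unchanged by construction. Only the pseudocounts and the centering could have changed a sign. For *Wnt2b*, *Wnt7b*, *Wnt9a* and *Wnt16*, whose populations did not overlap, leaving out 1 library could not have changed the sign either. When single libraries were left out, the difference ranged from 0.77 to 1.25 for *Wnt16*, from −3.19 to −0.71 for *Wnt2* and from −2.52 to −1.21 for *Wnt7b*. It ranged from 0.21 to 0.68 for *Wnt2b* and from −0.33 to −0.07 for *Wnt9a*. It ranged from −0.10 to 2.32 for *Wnt4* (below 0 without PDGFRα reporter+ library 3 or PDGFRα reporter- library 2), from −0.73 to 0.86 for *Wnt5a* (the same libraries) and from −0.16 to 0.93 for *Wnt5b* (PDGFRα reporter- library 2). It ranged from −0.39 to 0.16 for *Wnt10b* (above 0 without PDGFRα reporter+ library 3) and from −2.06 to 0.27 for *Wnt11* (above 0 without PDGFRα reporter+ library 2 or PDGFRα reporter- library 3). Leaving out 1 library unbalances the numbers. Depth is unknown, so that the counting error of the low ligands cannot be given.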
